A study of Mus musculus with 10 samples.

Results

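In mouse prostate cancer cells, 10288 accessible regions were called without treatment, with both platinum drugs and with oxaliplatin plus interferon-γ (IFNγ), and were absent from the list of cells given IFNγ alone. They were chosen from the 211107 regions obtained by joining the intervals of 5 ATAC-seq peak lists wherever they overlapped by at least 1 bp. ATAC-seq marks accessible DNA by where a transposase inserts sequencing adapters. The cells were Myc-CaP, a line from a prostate tumor of a male FVB mouse that carries a Myc transgene expressed in the prostate. Each of 5 groups had 2 libraries, all taken at 48 h. The control group (Ctrl) received none of the agents, the drug groups received oxaliplatin (Oxali) or cisplatin (Cispl) at 2 µM, the IFNγ group received 1000 pg of IFNγ per ml, and the Oxali + IFNγ group received oxaliplatin and IFNγ at these doses. The authors pooled the 2 libraries of each group before calling peaks, so each group has 1 list, and no difference could be set against the spread between replicates. Because the regions were chosen by their calls in these lists, their presence in the other 4 lists and their absence from the IFNγ list describe the choice and are not results.

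IFNγ binds its receptor, acts through the kinases JAK1 and JAK2 and induces genes of antigen presentation, many of which carry gamma-activated sites (GAS). Oxaliplatin and cisplatin crosslink DNA. Accessible regions away from start sites are often enhancers, and many of them carry binding sites of AP-1, the dimeric factor of the FOS and JUN families that responds to growth signals and stress. A part of the accessible genome lies in repeats, among them the short interspersed elements of the B2 family, which derive from a transfer RNA and are present in very many copies.

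The sequences of 6 of the regions are given as 200 bases of the plus strand of mm10 around the control summit, to show the sequence features on which the comparisons below turn. The regions in Ciita and Sec22b were the first of the interferon signalling and the class I antigen presentation lists. Capitals mark exact matches, on either strand, to the AP-1 word TGANTCA, the RUNX word TGTGGTT, and the words AAGAGGGC and CACAACCA, here called repeat words A and B. The last 4 regions were chosen after the values were seen, as those highest by −log10 q among regions with repeat word A in a masked repeat or with the AP-1 word outside one.
Ciita, chr16:10518075-10518274: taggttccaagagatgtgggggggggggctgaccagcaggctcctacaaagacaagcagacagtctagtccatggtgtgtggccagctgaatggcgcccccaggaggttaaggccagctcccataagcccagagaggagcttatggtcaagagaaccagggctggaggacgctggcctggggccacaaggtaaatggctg
Sec22b, chr3:97907902-97908101: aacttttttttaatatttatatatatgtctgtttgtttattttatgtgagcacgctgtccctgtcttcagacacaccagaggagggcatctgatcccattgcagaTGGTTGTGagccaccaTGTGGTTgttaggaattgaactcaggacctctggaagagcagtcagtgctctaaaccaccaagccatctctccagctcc
Stk3, chr15:35052279-35052478: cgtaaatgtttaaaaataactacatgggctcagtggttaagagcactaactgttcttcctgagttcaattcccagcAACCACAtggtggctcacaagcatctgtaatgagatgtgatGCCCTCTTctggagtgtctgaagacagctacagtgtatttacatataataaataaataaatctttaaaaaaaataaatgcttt
Swt1, chr1:151390120-151390319: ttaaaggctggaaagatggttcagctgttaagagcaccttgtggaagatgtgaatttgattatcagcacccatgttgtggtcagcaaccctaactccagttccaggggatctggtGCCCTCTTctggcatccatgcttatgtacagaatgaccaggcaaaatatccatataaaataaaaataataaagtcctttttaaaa
Zfat, chr15:68394872-68395071: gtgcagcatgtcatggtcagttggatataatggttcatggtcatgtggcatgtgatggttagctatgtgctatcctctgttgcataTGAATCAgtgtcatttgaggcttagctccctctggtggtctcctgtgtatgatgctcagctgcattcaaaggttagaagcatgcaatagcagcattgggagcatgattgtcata
Vps53, chr11:76080347-76080546: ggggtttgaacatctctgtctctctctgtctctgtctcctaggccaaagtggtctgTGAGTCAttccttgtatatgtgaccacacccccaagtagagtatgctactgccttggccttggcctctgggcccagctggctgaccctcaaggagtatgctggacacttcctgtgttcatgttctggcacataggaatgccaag
Of these, 5 lie in introns and the one nearest to Zfat lies between genes. The region in Ciita held none of these words. The region in Sec22b had repeat word B and the RUNX word, and the region in Stk3 had repeat word A and the RUNX word.

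Among 95665 regions called in the other 4 lists, 10.8% (95% Wilson interval 10.6 to 11.0%) were missing from the IFNγ list. The matching share was 5.55% for Ctrl, 1.69% for Oxali, 1.01% for Cispl and 0.906% for Oxali + IFNγ, which are 5016, 1467, 872 and 781 regions. The interval covers counting error alone, and regions are not replicates. The IFNγ list had the lowest depth, since its genome background, which is proportional to the number of reads, was 9.62 against 12.1 in Ctrl, or 79.3% of it, while the other 3 were at 92.9 to 113%. It also had the fewest intervals, 118949 against 122298 in Ctrl and 158621 to 174709 in the others. In summits (201782 against 201223) and in covered span (58.6 against 58.7 Mb) it was close to Ctrl. The start sites of Krt8 and Krt18, keratins of luminal epithelium, were called in Ctrl with highest pileups of 1078 and 43. Those of the epithelial genes Epcam and Cdh1 were not called, nor was that of the leukocyte gene Ptprc, whereas those of the fibroblast genes Col1a1 and Pdgfra reached 606 and 1358 and that of the endothelial gene Pecam1 reached 29, so the markers at start sites do not mark an epithelial cell throughout.

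**Figure D1:**
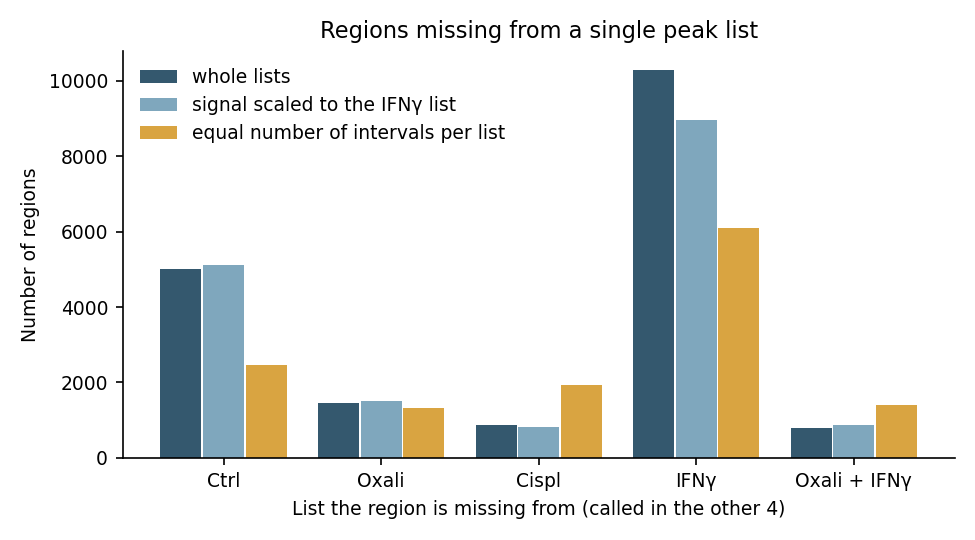
Number of regions missing from 1 list and called in the other 4, by the missing list, for the whole lists, for pileups scaled to the signal of the IFNγ list, and for an equal number of intervals per list. The IFNγ bars are the tallest in each of the 3 settings, at 10288, 8973 and 6110 regions.

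The regions were weak in untreated cells and higher with the drugs. Their median pileup, the number of reads stacked at the summit as recovered from the deposited fold and p, was 39 in Ctrl, 56 in Oxali, 72 in Cispl and 64 in Oxali + IFNγ. Divided by the genome background of the list, which is called the level here, the medians were 3.21, 4.97, 5.23 and 4.96. Regions called in all 5 lists had higher median levels, which were 9.77 in IFNγ, 11.5 in Ctrl, 13.7 in Cispl and 14.8 in both lists with Oxali. The quartiles of the Ctrl pileup of the regions missing from IFNγ were 32 and 49. Of the regions called in all 5 lists, 10111 fell in that range and serve below as the set of like Ctrl pileup. The regions missing from IFNγ had a median width of 377 bp, against 532 bp in the set of like Ctrl pileup and 761 bp over all regions called in every list. A region spans the joined intervals of all lists that called it, so widths of sets called in 4 and in 5 lists are not like for like. Regions missing only from Ctrl, Oxali, Cispl or Oxali + IFNγ had median widths of 398, 303, 317 and 267 bp.

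**Figure D2:**
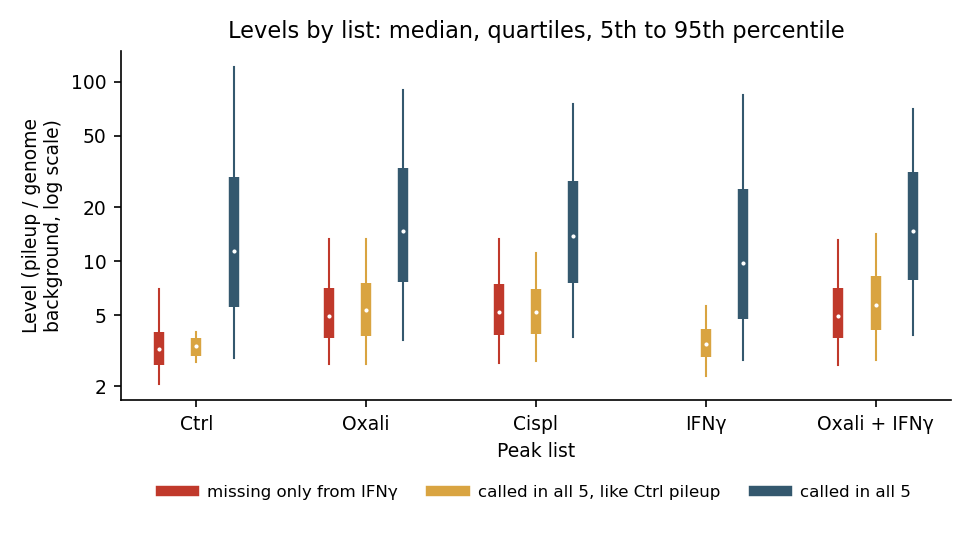
Level, as pileup over genome background on a log axis, by list, for the regions missing only from IFNγ, for those called in all 5 lists with a Ctrl pileup of 32 to 49, and for all regions called in every list. Circles are medians, thick bars quartiles and thin lines the 5th to 95th percentiles. The first set has no IFNγ values, and its median Ctrl level of 3.21 lies under the 11.5 of regions called in every list.

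The share missing from IFNγ fell with the level. With regions classed by their lowest level in the other 4 lists, 44.0% (42.7 to 45.4%) of 5370 regions under 2.5 were missing from IFNγ, 28.3% (27.5 to 29.1%) of 11666 at 3 to 4, 5.02% (4.62 to 5.44%) of 10943 at 5 to 7 and 0.160% (0.117 to 0.218%) of 25022 at 20 or more. The same count for Ctrl, the list with the next fewest intervals, gave 33.3% (32.0 to 34.7%), 9.57% (9.06 to 10.1%), 2.22% (1.96 to 2.52%) and 0.379% (0.308 to 0.466%). At levels of 3 to 4 the IFNγ share was thus above the Ctrl share, and at 20 or more it was below it, in both cases with intervals that do not overlap.

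**Figure D3:**
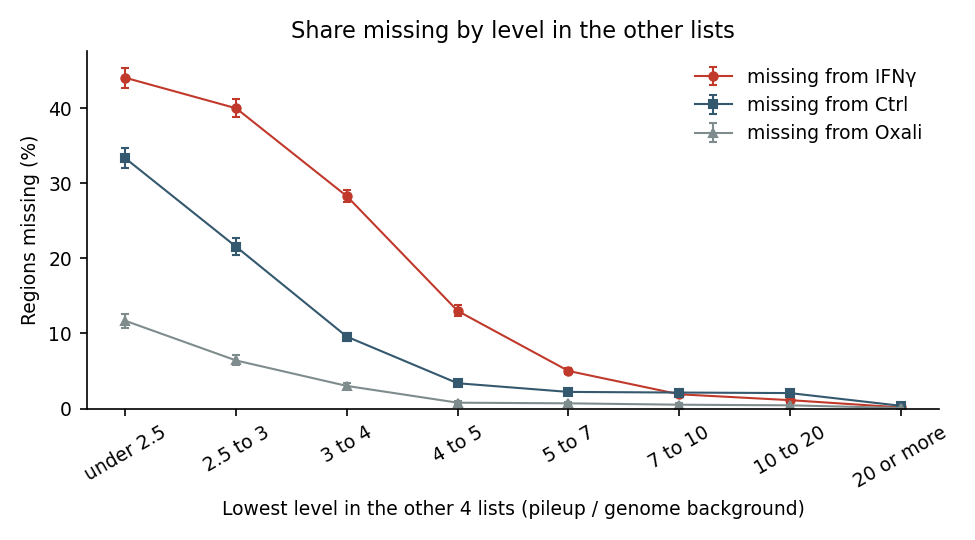
Share of regions missing from the IFNγ, Ctrl or Oxali list, in percent with 95% Wilson intervals, by the lowest level in the other 4 lists. The IFNγ share is the highest of the 3 in each class up to 5 to 7, and lies under the Ctrl share from 7 to 10 upward.

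Depth was set against the calls in 3 ways. At the genome background of the IFNγ list a pileup of 18 was the smallest to pass the calling p of 0.01. The median Ctrl pileup of the missing regions, scaled to the IFNγ depth, was 30.9. The mean scaled pileup of the 4 lists passed for 100% of the 10288 regions and the Ctrl pileup alone for 98.8%, but every region had passed in the deeper lists by the way it was chosen. The lower 95% Poisson limit of the Ctrl pileup passed for 70.9% (70.0 to 71.8%), against 91.9% (91.3 to 92.4%) in the set of like Ctrl pileup and 88.8% (87.9 to 89.6%) of the 5576 missing regions in the same range of Ctrl pileup. The median ratio of the IFNγ to the Ctrl level was 0.84 over regions called in all 5 lists, most of which were stronger than the missing regions. In the set of like Ctrl pileup the median level was 3.43 in IFNγ and 3.38 in Ctrl. Its regions had to pass in IFNγ, which removes low IFNγ values, so this set cannot show whether the IFNγ signal was lower at such levels. With the ratio of 0.84 also applied, a Ctrl pileup scaled to the IFNγ list passed for 91.8% and its lower limit for 49.5%. With equal numbers of intervals in each list, 6110 regions were missing from IFNγ and 2469 from Ctrl. How far depth or library quality accounts for the absences was not tested, since the 2 libraries of a group were pooled.

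Against Ctrl, many of these regions were higher with every drug treatment. The level was at least 1.5-fold higher in 48.1% of them with Oxali, in 53.2% with Cispl and in 49.2% with Oxali + IFNγ. Over all regions called in the 4 lists the shares were 29.9%, 26.4% and 31.4%. At least 1.5-fold lower levels were found in 1.27%, 0.680% and 1.95% of the missing regions, against 7.64%, 12.5% and 14.6% over all. In the set of like Ctrl pileup the lower shares were 1.04%, 0.870% and 1.09%. The missing regions of the same range had 0.664%, 0.466% and 0.735%. Both sets were thus far below the shares over all, so low shares were not particular to the missing regions. Both sets also had to be called in each drug list, which removes low drug values from regions weak in Ctrl. For a comparison at like Ctrl pileup, the 5576 missing regions in the same range of Ctrl pileup were higher in 48.9% (47.6 to 50.2%), 55.2% (53.9 to 56.5%) and 49.3% (48.0 to 50.6%), against 54.7% (53.8 to 55.7%), 54.9% (53.9 to 55.8%) and 60.0% (59.1 to 61.0%) of the set of like Ctrl pileup. The shares of the missing regions were thus lower with Oxali and Oxali + IFNγ, while with Cispl the intervals overlap. The set of like Ctrl pileup also had to pass in IFNγ, which favors regions of stronger signal. These differences therefore cannot be told apart from the choice of the sets. These 3 comparisons share the control list. Scaled by regions called in all 5 lists in place of the genome background, the higher shares were 27.4%, 36.1% and 28.8%, against 16.3%, 16.2% and 18.1% over all regions called in the 4 lists. The lower shares were then 7.15%, 3.21% and 8.73%, against 25.5%, 23.7% and 28.7% over all. Over all regions more were thus lower than higher, the opposite of the balance at the genome background. The set of like Ctrl pileup was not compared at this scaling.

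Adding IFNγ to Oxali did not remove these regions, by the way they were chosen, and in the median their level was that with Oxali alone. The median ratio of Oxali + IFNγ to Oxali was 1.00, with quartiles of 0.85 and 1.18. The ratio was at least 1.5 in 4.70% of them and 1.5-fold lower in 4.86%, against 2.58% and 5.32% over all regions called in the 4 lists. In the set of like Ctrl pileup the median ratio was 1.07, with 6.76% at least 1.5-fold higher and 2.23% lower, against 1.00, 4.95% and 4.84% in the missing regions of the same range. That set also had to pass in IFNγ, so this difference cannot be told apart from the choice of the sets.

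Most of the regions lay away from start sites. Of the 10288, 53.2% were in introns, 40.1% between genes, 2.08% in untranslated regions and 1.66% in coding exons. In the set of like Ctrl pileup these shares were 49.6%, 43.8%, 2.19% and 1.57%, and over all merged regions 49.3%, 42.2%, 3.65% and 1.82%. Start sites within 1 kb were found for 10.3% (9.72 to 10.9%), against 23.5% (23.2 to 23.8%) of regions called in all 5 lists and 10.6% (9.98 to 11.2%) of the set of like Ctrl pileup. Of the missing regions in the same range of Ctrl pileup, 9.11% (8.38 to 9.89%) had one. The nearest IFNγ interval was 5262 bp away in the median, and 9.92% of the regions had one within 500 bp. Regions missing only from Ctrl were nearer to a Ctrl interval, at a median of 2564 bp with 25.2% within 500 bp. The share missing from IFNγ ranged from 9.19% on chromosome 19 to 12.5% on chromosome 18, leaving aside chromosome Y, where 3 of 42 regions (7.14%) were missing. The median distance from one missing region to the nearest other was 48549 bp, and 15.3% had another within 10 kb.

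The sequence of the regions differed from that of the set of like Ctrl pileup in the AP-1 word and in masked repeats, among other features. The AP-1 word stood within 100 bp of the summit in 15.5% (14.8 to 16.2%) of the regions missing from IFNγ, against 31.0% (30.1 to 31.9%) of that set, 24.1% of all regions called in every list and 20.4% of all merged regions. Of the 5576 missing regions in the same range of Ctrl pileup, 16.1% (15.2 to 17.1%) had it. Among regions missing only from Ctrl it stood in 29.9% (28.7 to 31.2%), and among those missing only from Cispl in 30.0% (27.1 to 33.2%). Among those missing only from Oxali it stood in 15.1% (13.3 to 17.0%), and for Oxali + IFNγ in 14.2% (11.9 to 16.8%), so a low share was not particular to the IFNγ list. Regions missing only from Ctrl, and 47.6% of all merged regions, have no control summit, and their window stood at the region's midpoint. With the window at the midpoint in every set, the AP-1 word was in 13.5% (12.9 to 14.2%) of the regions missing from IFNγ, 23.5% (22.7 to 24.4%) of the set of like Ctrl pileup, 29.9% of those missing only from Ctrl and 17.3% of all merged regions. At a Ctrl level of 3 to 4, 18.1% (16.7 to 19.6%) of 2643 regions with the AP-1 word were missing from IFNγ, against 37.8% (36.8 to 38.9%) of 7773 without it. At a Ctrl level of 4 to 5 the shares were 6.79% (5.76 to 8.01%) and 20.7% (19.6 to 21.7%).

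At least 50% of the 200 bases around the summit was masked repeat in 25.6% (24.7 to 26.4%) of the regions missing from IFNγ, against 18.05% (17.3 to 18.8%) of the set of like Ctrl pileup, 13.1% of all regions called in every list and 17.3% of all merged regions. In the missing regions of the same range of Ctrl pileup it was 27.3% (26.1 to 28.5%). Of the regions missing only from another list, 39.1% were masked for Oxali + IFNγ, 26.6% for Oxali, 24.0% for Cispl and 12.9% for Ctrl, so a raised share of masked repeats was not particular to the IFNγ list. Over whole regions, which need no summit, the masked share was 23.6% for IFNγ, 15.2% in the set of like Ctrl pileup, 11.3% for Ctrl and 16.0% of all merged regions. Comparing words of 8 letters between the missing regions and the set of like Ctrl pileup brought up repeat words A and B, so their shares in these sets restate that choice and are given without intervals. Repeat word A was in 15.1% of the missing regions, 6.11% of the set of like Ctrl pileup and 6.83% of all merged regions. Repeat word B was in 9.35%, 4.82% and 4.69% of the same sets. Both words and the RUNX word, on one strand or the other, occur in the consensus of B2 elements of the mouse, which is background knowledge, since no table of repeat families was used here. Of the masked regions missing from IFNγ, 50.3% had repeat word A, against 27.9% of the masked regions in the set of like Ctrl pileup.

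Regions missing from another single list were not used to find repeat word A. It was in 13.6% (11.3 to 16.2%) of the 781 regions missing only from Oxali + IFNγ, in 3.43% (2.96 to 3.97%) of those missing only from Ctrl, in 6.00% (4.89 to 7.33%) for Oxali and in 5.05% (3.78 to 6.71%) for Cispl. Within the masked regions missing only from Oxali + IFNγ the word was in 31.8% (26.8 to 37.2%), against 30.6% of all masked regions and the 50.3% given above for IFNγ. Within the regions missing from IFNγ, the median ratio of Oxali + IFNγ to Oxali was 0.93 in the 1558 with repeat word A and 1.02 in the others. A lower ratio with the word was also found in the set of like Ctrl pileup (0.97 against 1.07) and in regions called in all 5 lists (0.93 against 0.97), so it was not particular to the missing regions. Reads in repeats depend on how multiply placed reads were filtered, and the part of that filter was not tested.

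**Figure D4:**
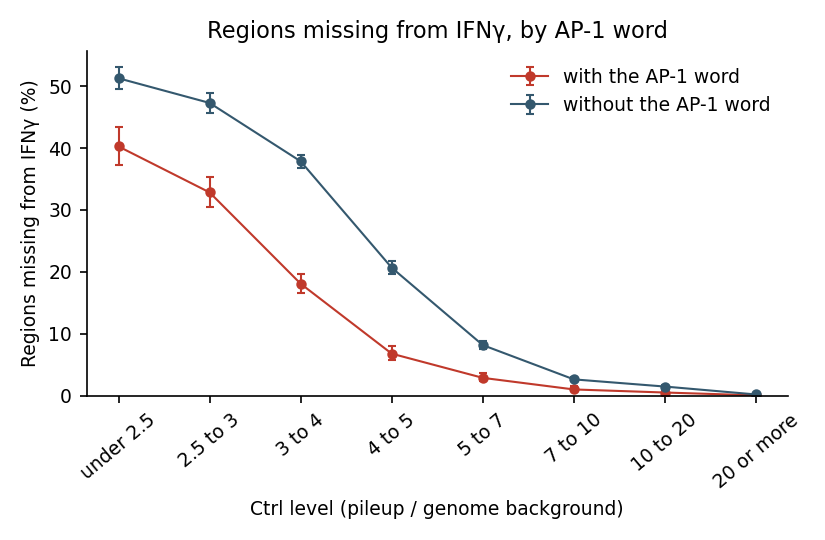
Share of the regions called in the other 4 lists that were missing from IFNγ, in percent with 95% Wilson intervals, by Ctrl level, for regions with and without the AP-1 word within 100 bp of the control summit. At a Ctrl level of 3 to 4 the shares were 18.1% with and 37.8% without it.

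The other motifs differed less. The RUNX word was in 15.3% (14.6 to 16.0%) of the missing regions and 10.8% (10.2 to 11.4%) of the set of like Ctrl pileup. Outside masked repeats it was in 6.99% (6.44 to 7.58%) and 7.39% (6.84 to 7.97%), with overlapping intervals, and inside them in 39.4% and 26.2%. The GAS word TTCNNNGAA was in 6.80% (6.33 to 7.31%) against 5.67% (5.23 to 6.13%), with 6.06% of all merged regions. In the missing regions of the same range of Ctrl pileup it was in 6.55% (5.93 to 7.23%), an interval that overlaps that of the set of like Ctrl pileup. The core of the interferon-stimulated response element, GAAANNGAA, was in 5.14% (4.73 to 5.59%) against 4.96% (4.55 to 5.40%), with 5.43% of all. For the κB word GGGNNTTCC the shares were 2.40% and 2.45%, with 2.83% of all. The CTCF core CCANNAGGG was in 6.70% (6.23 to 7.20%) against 5.58% (5.15 to 6.03%), with 6.16% of all, and in 7.23% (6.58 to 7.94%) of the missing regions of the same range. The TEAD word GGAATG was in 13.8% against 15.5%, with 13.8% of all, and the forkhead word TGTTTAC in 4.67% against 5.55%, with 4.33% of all. The E-box CACGTG, which MYC dimers bind, was in 4.45% against 3.79%, with 3.80% of all. The GC box GGGCGG was in 4.71% against 5.26%, with 8.48% of all. The ETS word CCGGAAG and the CRE TGACGTCA, sites typical of promoters, were in 0.894% against 1.01% and in 0.379% against 0.316%, with 1.88% and 0.472% of all. GC content had a median of 47.5% in the missing regions and 48.5% in the set of like Ctrl pileup. At Ctrl levels of 2.5 to 5 the share missing from IFNγ went from 38.3% (36.1 to 40.6%) under 40% GC to 24.1% (22.7 to 25.6%) at 55% or more.

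Ranked by the lowest level in the 4 lists, the first regions stood on a high local background. The second of this ranking, nearest to Eda2r, which encodes a receptor of the tumor necrosis factor family, had pileups of 784 in Ctrl, 901 in Oxali, 1241 in Cispl and 1170 in Oxali + IFNγ over local backgrounds of 539 to 751. Its pileup was 1.39 to 1.72 times its surroundings, with Cispl the highest. Others of the first 10 were nearest to or in Ccn1, a matricellular protein gene, Hmga1, a chromatin protein gene, Bbc3, which encodes the p53-induced cell death factor PUMA, and Jund, which encodes an AP-1 subunit. Over all 273 missing regions with a Ctrl level of 10 or more, the median pileup was 2.11 times its local background and that background 6.68 times the genome background, while for regions called in all 5 lists at such levels the values were 12.8 and 2.54. The 12 first regions at start sites of protein-coding genes likewise had a high local background. The one at Cflar, which encodes an inhibitor of caspase-8, had 264, 247, 341 and 306 over local backgrounds of 90.9 to 121, with an IFNγ interval 130 bp away.

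Ranked by the lowest −log10 q, an order chosen after the values were seen, several regions stood on the flat genome background far from any IFNγ interval. A region in an intron of Stk3, a kinase of the Hippo pathway, had pileups of 105 in Ctrl, 140 in Oxali, 142 in Cispl and 132 in Oxali + IFNγ. Scaled to the IFNγ depth its Ctrl pileup is 83.2, where 18 would have passed, and the nearest IFNγ interval was 15089 bp away. All of the 200 bases around its summit, printed above, were masked repeat. A region in Cers6, a ceramide synthase gene, had 106, 92, 105 and 125 with a gap of 17241 bp. One in Abi3bp, an extracellular matrix protein gene, had 91, 132, 199 and 144 with a gap of 21032 bp. In these 3 regions (Stk3, Cers6 and Abi3bp) the Ctrl pileup at IFNγ depth lay between 72.1 and 84.0. Others of the first 10 were nearer to an IFNγ interval. The gap was 73 bp in Lipc, 159 bp in Pappa2, 1075 bp near Zfp53, 1351 bp near Gmds and 1519 bp near Cyren. The regions near Zfp53, Gmds and Cyren stood on raised Ctrl local backgrounds of 71.1, 44.9 and 174.5.

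**Figure D5:**
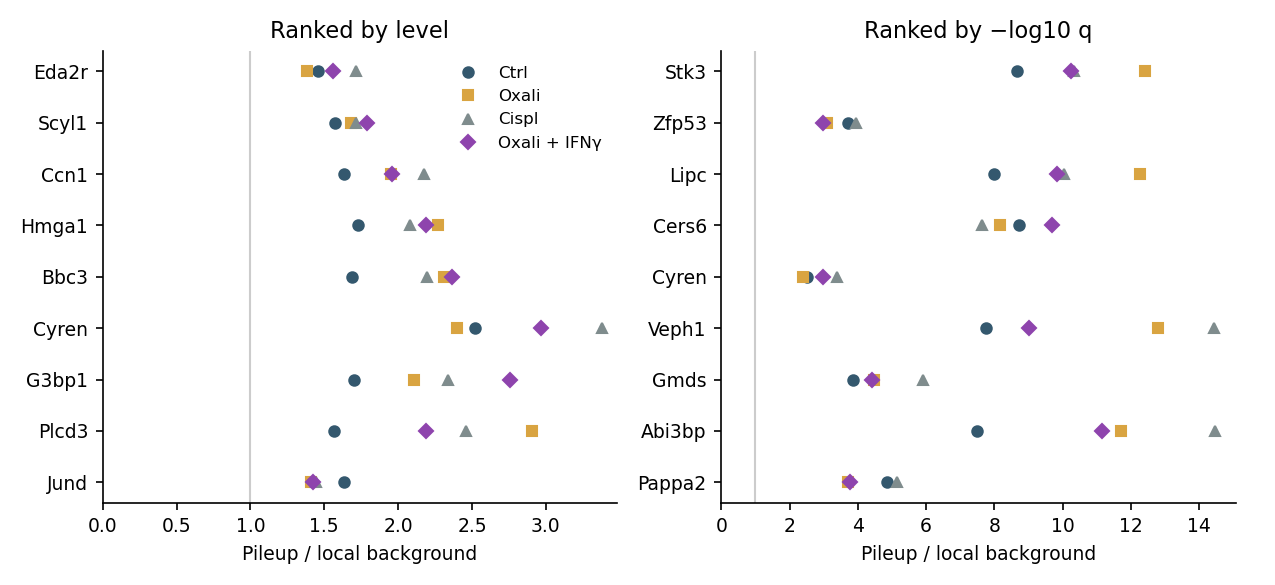
Pileup over local background in the Ctrl, Oxali, Cispl and Oxali + IFNγ lists for 9 of the first 10 regions by lowest level (left) and by lowest −log10 q (right), named by the gene they lie in or nearest to, with a line at 1. On the left the Ctrl values are 1.45 to 2.52, and on the right they reach 8.73 in Cers6.

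Of 21911 protein-coding genes, 22.2% had a missing region in the gene or within 5 kb, and each gene list was read against that share. In the interferon signalling list 6 of 30 genes had one, namely Ifnar1, Jak2, Tyk2, Irf1, Mx1 and Ciita. The region in Ciita, the activator of class II genes, had pileups of 46 in Ctrl, 56 in Oxali, 101 in Cispl and 74 in Oxali + IFNγ. The region in Mx1, which encodes an antiviral GTPase, had 32, 44, 39 and 50, and that in Tyk2, a kinase of cytokine receptors, had 33, 39, 45 and 51 with all 200 bases masked. Levels in these 3 were within the 5th to 95th percentile of all missing regions in each list. In the class I antigen presentation list 3 of 18 genes had one. They were Sec22b, a membrane fusion protein of the secretory pathway, with 40, 53, 86 and 52, Pdia3, a chaperone of peptide loading, with 39, 39, 40 and 67, and Erap1, which trims peptides, with 25, 53, 120 and 56. The windows in Sec22b and Pdia3 were fully masked and held repeat word B and the RUNX word.

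In the NF-κB signalling list 4 of 18 genes had a missing region. The first, in Nfkb1, which encodes the p105 and p50 subunits, had 43 in Ctrl, 118 in Oxali, 69 in Cispl and 162 in Oxali + IFNγ, so both lists with Oxali were above the other 2. Icam1, an adhesion molecule gene, had 39, 48, 71 and 62 and an IFNγ interval 284 bp away. The p53 targets had 6 of 20 genes, the prostate epithelial lineage 10 of 22, the histone acetylation list 9 of 22 and the Myc network 0 of 18, where 0 allows a share of up to 17.6% by the Wilson interval. The median gene length was 19.4 kb in the interferon signalling list, 5.68 kb in the class I list, 16.7 kb in the p53 list, 23.9 kb in the NF-κB list, 24.7 kb in the prostate lineage list, 43.9 kb in the histone acetylation list and 10.5 kb in the Myc list, against 17.4 kb over all protein-coding genes. As a share of the regions called in the other 4 lists at the same genes, the missing regions made up 9.48% in the prostate lineage list, 8.33% in the histone acetylation list, 8.05% in the NF-κB list, 7.95% in the p53 list, 6.96% (8 of 115) in the interferon signalling list, 5.77% (3 of 52) in the class I list and 0 of 70 in the Myc list, against 9.46% over all protein-coding genes. Grhl2, a transcription factor gene of epithelia, had 5 of 20 and Hdac4, a deacetylase gene, 4 of 21.

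At the edge of the rule, the regions nearest to an IFNγ interval were 10, 13 and 22 bp away, near Osbpl3, Nfasc and Msx2, with Ctrl pileups of 72, 31 and 28. Just outside it, the 3 regions called in all 5 lists with the smallest IFNγ overlap, near Tbxas1, Ccdc112 and Syt12, were overlapped by 19, 31 and 34 bp and had Ctrl pileups of 34, 55 and 51 against IFNγ pileups of 24, 22 and 35.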

How the data were processed

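ATAC-seq was done on 10 libraries, 2 per group. As the study's methods state, the authors trimmed reads with cutadapt, aligned them to mm10 with Bowtie2 (2.2.8 per the submitters' processing notes), kept well-mapped reads with SAMtools, took out duplicate and mitochondrial reads, merged both libraries of a group and called peaks with MACS2 2.1.0 at p 0.01, then removed blacklisted regions. The deposited fold is the ratio of pileup plus 1 to local background plus 1. The deposited −log10 p is that of a Poisson test of the pileup, and the deposited −log10 q is its adjusted value. The Cispl list ends at a −log10 p of 2.99 and the others near 2.00, so weak Cispl calls are lacking.

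From these, the whole-number pileup and its background were solved for 100% of summits in each list, a step checked on simulated data. Intervals were joined at 1 bp overlap (bedtools 2.31.1, Python 3.11.15, pysam 0.24.0). Genes were those of GENCODE M21. Sequences and soft-masked repeats were read from GRCm38, which is mm10. Exact words were searched on both strands, overlaps between words included, in 200 bp around the control summit, or around the region's midpoint in the 100564 of 211107 merged regions with no Ctrl summit. The 2 repeat words were searched after seeing the data. Named regions were the first by lowest level (10 of all, 12 at protein-coding start sites, 3 per gene list) and those at the edge of the rule. Some of them are not reported here. The regions, the 7 gene lists and the 12 motifs were chosen with earlier results of these data known. No test was made, since each group has 1 list. Wilson intervals (95%) and Poisson limits cover counting error only.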

Additional observations from a re-analysis of the deposited data

How the results depend on the processing

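No paired analysis was possible because the 2 libraries of each group were pooled before peaks were called, and for the same reason no library could be left out. The number of regions missing from IFNγ lay between 8973 and 10445 under joining at 50% overlap, matched depth, matched signal, a single −log10 p of 3, a q of at most 0.01 in the 4 lists, leaving out regions within 500 bp of an IFNγ interval and leaving out chromosomes X and Y, but it was 6110 with equal numbers of intervals per list, 6108 of the 10288 regions being found again. Matched depth and matched signal scaled the recovered pileups to the IFNγ list and drew no reads, so they carry no counting error. Most regions called in the deeper lists pass again under them, and the part of depth was not tested by them. The share over the IFNγ calling threshold was 99.4% scaled by regions called in all 5 lists, 98.6% by the lowest of the 4 lists, 98.8% by the Ctrl pileup and 70.9% by its lower Poisson limit. The start-site share was 6.37% for 500 bp and 17.1% for 2 kb, and that in masked repeats 23.6% over whole regions. With windows at the region midpoint the motif shares were 13.5% for AP-1, 6.07% for the CTCF core, 13.9% for RUNX and 13.1% for TEAD. Scaled by regions called in all 5 lists, 27.4%, 36.1% and 28.8% were 1.5-fold higher with Oxali, Cispl and Oxali + IFNγ, and 7.15%, 3.21% and 8.73% lower, while over all regions called in the 4 lists the balance turned to more lower (25.5%, 23.7% and 28.7%) than higher. The cause of these moves was not tested. The matched signal, the Ctrl pileup and its Poisson limit, the chromosomes and the repeat words were chosen after seeing the data. In the regions found again under matched signal and equal ranks, the AP-1 word was in 15.2% and 15.2% and repeat word A in 16.3% and 14.4%.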

Other observations

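The clustered protocadherin genes on chromosome 18, which encode cell adhesion molecules with variable promoters, were looked at after their values were seen. Of 15 regions called in the other 4 lists between 36930184 and 37841873 (mm10), 10 were missing from IFNγ (66.7%). Because the cluster was chosen by its values, this share restates the choice and is given without an interval. Their Ctrl pileups were 28 to 55 with a median of 41. At a Ctrl level of 3 to 4, 32.8% of all such regions were missing from IFNγ. Of the 63 regions that any list held there, 15 were called in Ctrl, 7 in IFNγ, 39 in Oxali, 43 in Cispl and 56 in Oxali + IFNγ. Over the whole genome these lists held 122298, 118949, 158621, 174048 and 174709 intervals in the same order. The lists with a drug were thus larger throughout, and the counts at the cluster were not corrected for that. Neighbouring regions of the cluster are not independent, and the small number limits what the share can show.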
